A study of Homo sapiens with 4 samples.

Results

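The genes described here are 6 aldehyde dehydrogenases (ALDH1A1, ALDH1A2, ALDH1A3, ALDH2, ALDH3A1 and ALDH3B2) and 4 surface markers (CD44, CD24, PROM1 and EPCAM), 10 genes in all, chosen because they are used to recognize stem-like cells in breast tumors. Probes were assigned to a gene when the RefSeq accession printed on the array belonged to it. Of the 10 genes, 8 had a probe assigned in this way, with 10 probes among them, out of 16419 genes named on the array. CD24 and ALDH3B2 had no probe assigned and were not analysed here. Of the 8 genes with a probe, 7 reached a signal of 100 on at least 1 array, as did 12156 of the 16419 genes. ALDH1A2 did not.

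Expression was measured in SkBr3 and BT474, established HER2-positive breast cancer cell lines, and in 1 lapatinib-resistant clone of each, named SkBr3/Lap and BT474/Lap. Lapatinib inhibits the EGFR and HER2 tyrosine kinases, and the resistant cells were selected with rising doses of the drug, up to 1 μM. The parental cells are labelled as vehicle-treated and the clones as treated with lapatinib, and all 4 cultures were grown in DMEM/F12 medium. Each of the 4 samples was hybridized to 1 array, so the comparisons have no replicates and no p value, and the number of arrays limits their precision.

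Each line is represented by a single resistant clone, so a change that came with resistance, with the presence of the drug or with the choice of the clone cannot be told apart. SkBr3/Lap was hybridized on a separate slide from the 3 remaining samples, which were on 1 slide together, so slide and resistance cannot be told apart in the SkBr3 comparison. The samples are labelled clone 3 for SkBr3/Lap and clone 6 for BT474/Lap, while the study's text gives these numbers the other way round, and clone numbers are not used here.

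Aldehyde dehydrogenases oxidize aldehydes to carboxylic acids. The ALDH1A enzymes turn retinaldehyde into retinoic acid, the ligand of the retinoic acid receptors, whereas ALDH2 is the mitochondrial enzyme that clears acetaldehyde. High aldehyde dehydrogenase activity in a fluorescent assay, and the presence of CD44 together with little or no CD24, are both used to sort breast tumor cells that seed new tumors. PROM1, also known as CD133, and EPCAM, an adhesion molecule of epithelial cells, serve as further surface markers.

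The value of a probe was the processed signal, a linear intensity in arbitrary units from which the scanner software had subtracted the background. Signals are given as deposited, and fold changes were taken after dividing each array by its 75th percentile, which on the SkBr3/Lap array was 1.86 times that of the SkBr3 array and on the BT474/Lap array 1.45 times that of the BT474 array. Equal signals therefore stand for a lower scaled level in a clone. A signal that the software did not mark as well above background was raised to the lowest signal so marked on that array, between 13.3 and 16.01, and the fold change was then a limit. A change of at least 2-fold was counted. Signals of different probes were not set against each other, apart from sums over lists of cell type markers, which were not scaled.

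The retinaldehyde dehydrogenases ALDH1A1 and ALDH1A3 changed in opposite directions in the clones. In SkBr3/Lap, ALDH1A1, ALDH1A3 and ALDH2 were at least 2-fold lower than in SkBr3 and CD44 was at least 2-fold higher. In BT474/Lap, ALDH1A1, ALDH1A3 and ALDH3A1 were at least 2-fold higher than in BT474 and PROM1 was at least 2-fold lower. Thus 3 genes were lower and 1 was higher in SkBr3/Lap, where 13.0% of all 12156 genes were lower and 13.5% were higher. In BT474/Lap 3 genes were higher and 1 was lower, where 8.60% of all genes were higher and 5.14% were lower. The median log2 fold change was -1.23 over the 6 genes with a fold change in SkBr3/Lap and -0.19 over the 7 in BT474/Lap, compared with -0.05 and -0.08 over all genes. The median in SkBr3/Lap lies midway between the limit of ALDH1A1 (-2.31) and EPCAM (-0.14), and it was -0.43 after normexp correction with quantile normalization and -0.14 over probes well above background on every array.

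The counts for BT474/Lap moved with the scaling too. They were 2 higher and 2 lower when each array was scaled to its median, 3 higher and 0 lower when the percentile was taken over probes well above background on all 4 arrays, and 2 higher and 0 lower after normexp background correction with quantile normalization. With quantile normalization alone, the median over these genes was 0.11 in BT474/Lap. Since RNA came from whole cultures, fewer cells expressing a gene and less RNA per cell cannot be told apart.

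**Figure D1:**
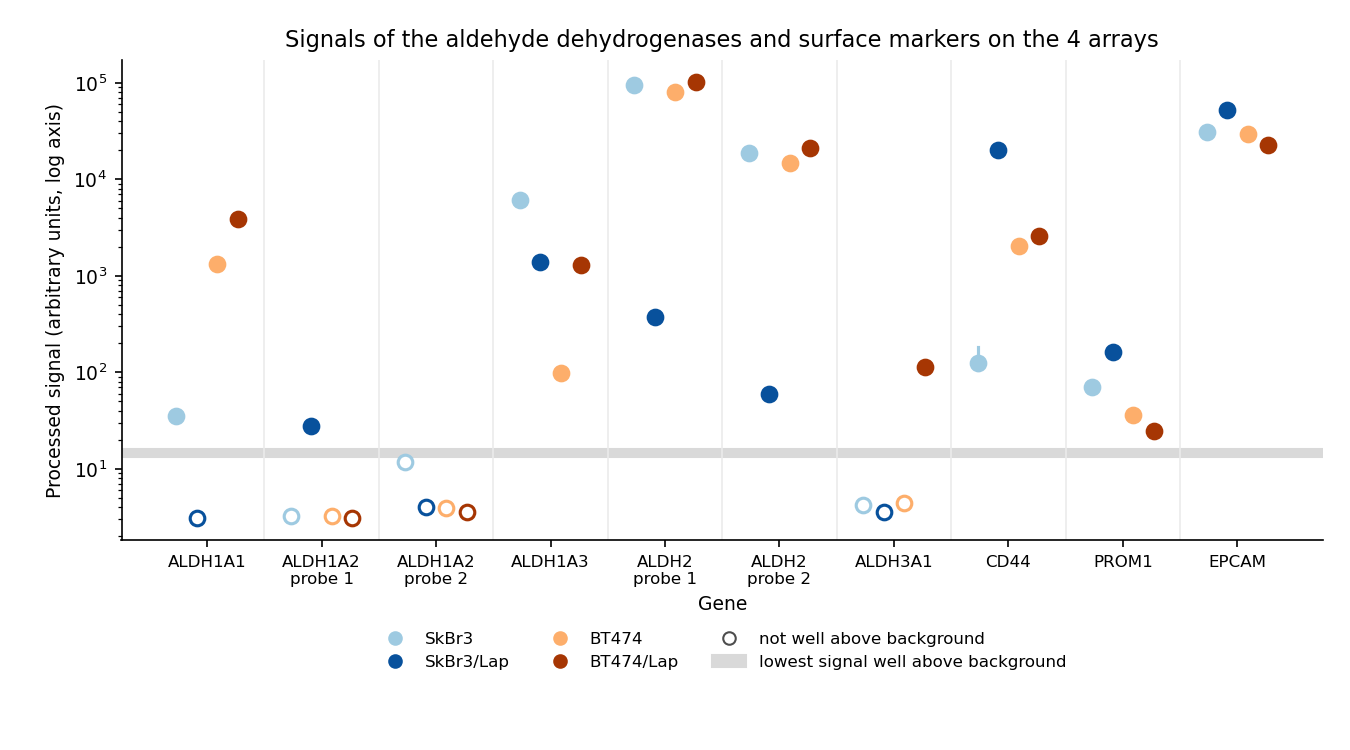
Processed signal (arbitrary units, log axis) of each of the 10 probes on the 4 arrays. Points are single arrays, open points are not well above background, vertical lines give the lowest and highest of the 10 spots of CD44, and the grey band spans the lowest signals well above background, 13.3 to 16.01. Points should be compared within a probe only, and ALDH2 in SkBr3/Lap and CD44 in SkBr3 stand far below the other 3 arrays.

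**Figure D2:**
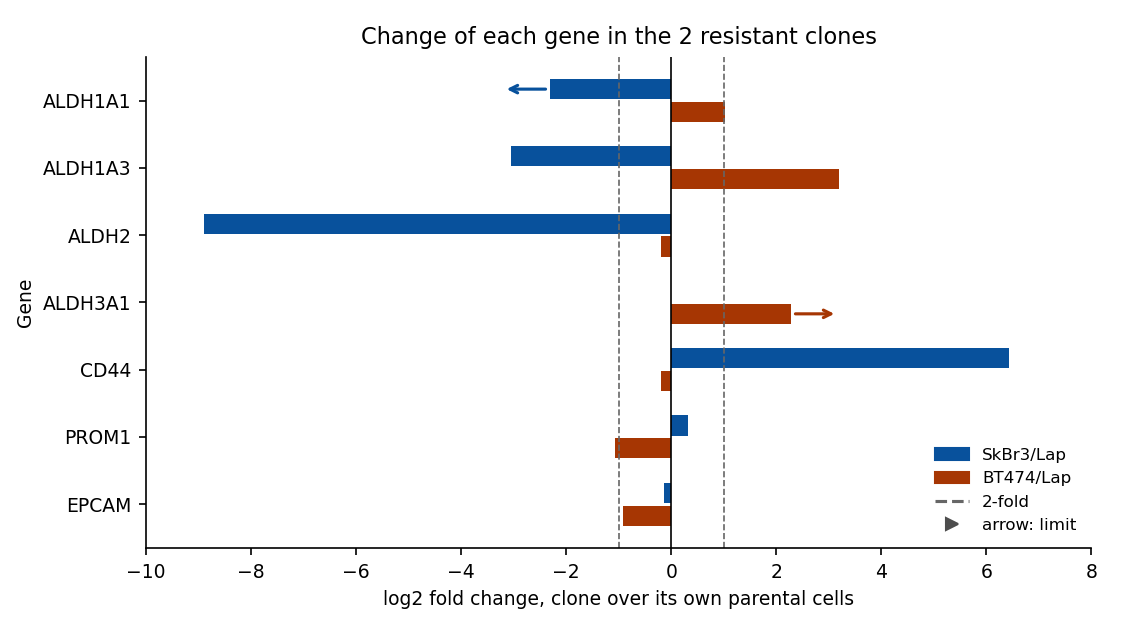
The log2 fold change of the 7 genes with a kept probe, each clone over its own parental cells. Bars are single comparisons without replicates, arrows mark limits, dashed lines mark 2-fold, and no bar is drawn for ALDH3A1 in SkBr3/Lap, where neither signal was well above background. ALDH1A1 and ALDH1A3 point in opposite directions in the clones.

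ALDH1A3, which makes retinoic acid, was 1 of 2 of these genes, with ALDH1A1, that changed at least 2-fold in both clones and in opposite directions. Its signal was 6165 in SkBr3 and 1389.5 in SkBr3/Lap, and 97.7 in BT474 and 1293 in BT474/Lap, each well above background. SkBr3 was high and BT474 low, with both clones in between. The gene was 8.25-fold lower in SkBr3/Lap (log2 fold change -3.04) and 9.13-fold higher in BT474/Lap (3.19). It ranked 291 from the lowest of 11784 genes with a fold change in SkBr3/Lap and 141 from the highest of 11832 in BT474/Lap. On the scaled level the parental lines differed 65.6-fold, with SkBr3 the higher, and the clones differed 1.15-fold. The same calls were made under all 11 alternative settings.

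ALDH1A1, the retinaldehyde dehydrogenase long linked to the activity assay, moved in the same directions from a different starting point. Its signal was 35.6 in SkBr3 and 3.12 in SkBr3/Lap, where it was not well above background, and 1313 in BT474 and 3865 in BT474/Lap. Only the BT474 cells had a strong signal. ALDH1A1 was at least 4.98-fold lower in SkBr3/Lap, a limit set by the dim signal in the clone, and 2.03-fold higher in BT474/Lap (log2 fold change 1.02). The parental lines differed 35.5-fold and the clones at least 359-fold, with the BT474 cells higher in both, so the gap between the lines, unlike that of ALDH1A3, was wider in the clones. The fall rests on a signal near background and the rise is close to the 2-fold threshold. The fall was below 2-fold after normexp correction with quantile normalization (log2 fold change -0.81), and the rise was below 2-fold when arrays were scaled to their median (0.81).

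A fall of at least 2-fold in SkBr3/Lap combined with a rise of at least 2-fold in BT474/Lap was seen for 2 of the 7 genes, ALDH1A1 and ALDH1A3. Over all genes it was seen for 1.55%, or 188 of 12156.

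The bases just upstream of ALDH1A1 and ALDH1A3 are shown because the 2 genes moved together. The sequences are the 250 bases before the RefSeq start of each gene, read 5′ to 3′ on the gene's strand in GRCh38.p14, with CCAAT and GGGCGG matches on either strand in capitals. The ALDH1A1 window is chr9:72953054-72953303 on the minus strand and the ALDH1A3 window is chr15:100879581-100879830 on the plus strand.
ALDH1A1: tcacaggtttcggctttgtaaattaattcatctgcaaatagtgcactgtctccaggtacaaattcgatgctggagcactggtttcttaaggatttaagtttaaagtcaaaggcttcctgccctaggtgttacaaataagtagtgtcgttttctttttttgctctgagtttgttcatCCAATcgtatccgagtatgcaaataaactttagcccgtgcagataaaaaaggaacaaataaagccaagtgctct
ALDH1A3: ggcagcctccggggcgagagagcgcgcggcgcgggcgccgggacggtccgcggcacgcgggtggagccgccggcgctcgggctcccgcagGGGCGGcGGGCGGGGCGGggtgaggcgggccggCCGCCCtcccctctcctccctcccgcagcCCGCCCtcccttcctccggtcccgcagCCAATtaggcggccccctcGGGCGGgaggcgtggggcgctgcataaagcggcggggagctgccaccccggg
The windows had little in common in composition. GC content was 38.4% with 6 CpG for ALDH1A1 and 82.4% with 38 CpG for ALDH1A3, where the median of all 35116 promoters was 58% with 11 CpG. Each window held 1 CCAAT, beginning 74 bases before the start in ALDH1A1 and 71 bases before it in ALDH1A3. This box was found in 32.0% of all promoters. GGGCGG was found 6 times in ALDH1A3, with 2 of the matches sharing a base, and not in ALDH1A1, and it was found in 42.6% of promoters. Neither window held TATAAA, present in 10.7% of promoters, TGANTCA, present in 6.57%, or the NF-κB motif, present in 9.96%.

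ALDH1A2, the remaining retinaldehyde dehydrogenase, was hardly detected. With 1 probe its signal was 11.7 and 4.02 in SkBr3 and SkBr3/Lap and 3.90 and 3.60 in BT474 and BT474/Lap, none of them well above background. With the other probe it was 3.28, 27.5, 3.26 and 3.08 in the same order, and the SkBr3/Lap signal was the only one well above background. No fold change is given for either probe. The probes thus disagreed on whether the gene was detected in SkBr3/Lap, and both were too dim to be counted.

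ALDH2 had the largest fall of these genes. Its signal was 94963 in SkBr3 and 369.8 in SkBr3/Lap, and 80922 in BT474 and 102358 in BT474/Lap. The other ALDH2 probe read 18731, 59.5, 14880.0 and 21056 on the same arrays. On both probes the SkBr3/Lap array stood alone, far below the other 3, and it remained well above background. ALDH2 was 478-fold lower in SkBr3/Lap with the first probe (log2 fold change -8.90) and 586-fold lower with the other (-9.19). It ranked 6 from the lowest of 11784 genes. In BT474/Lap the fold changes of the probes were -0.20 and -0.04 on the log2 scale, both within 0.28, the median range over genes with several probes. Parental SkBr3 and BT474 were alike on this scale, 1.22-fold apart, whereas SkBr3/Lap was 341-fold below BT474/Lap. The fall was between -9.05 and -8.23 on the log2 scale under the 11 alternatives.

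ALDH3A1, a cytosolic enzyme that oxidizes aromatic and medium-chain aldehydes, was detected on a single array. Its signal was 4.26 and 3.60 in SkBr3 and SkBr3/Lap and 4.37 in BT474, none well above background, and 113 in BT474/Lap. It was at least 4.88-fold higher in BT474/Lap than in BT474, and no fold change can be given for SkBr3/Lap. The limit was below 2-fold after normexp correction with quantile normalization (log2 fold change 0.85), a correction that raises dim signals toward a common offset.

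CD44, the receptor for the matrix polysaccharide hyaluronan, had the largest rise. Its single probe was printed 10 times on each array. Its mean signal was 124 in SkBr3 (10 spots, 106 to 184) and 19894 in SkBr3/Lap (18636 to 20502), and it was 2027 in BT474 (1955 to 2116) and 2585 in BT474/Lap (2454 to 2758). The spots of SkBr3 and SkBr3/Lap did not come near each other, and SkBr3/Lap was above every other array. The SD of the log2 spot signals was 0.23 in SkBr3 and at most 0.05 on the other arrays. This is spread within an array, and it says nothing of the spread between cultures.

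CD44 was 86.5-fold higher in SkBr3/Lap (6.43 on the log2 scale), ranking 43 from the highest of 11784 genes, and it was 1.14-fold lower in BT474/Lap (-0.19). The order of the lines was turned by this change. SkBr3 was 15.8-fold below BT474 before selection, and SkBr3/Lap was 6.24-fold above BT474/Lap. The log2 fold change in SkBr3/Lap was between 5.75 and 6.59 under the alternatives. How the probe reads the different CD44 isoforms was not analysed here.

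The bases upstream of CD44 are shown for comparison with those of ALDH1A1 and ALDH1A3, since CD44 went the other way in SkBr3/Lap. The window is chr11:35138921-35139170 on the plus strand of GRCh38.p14, from RefSeq, with GGGCGG on either strand in capitals.
CD44: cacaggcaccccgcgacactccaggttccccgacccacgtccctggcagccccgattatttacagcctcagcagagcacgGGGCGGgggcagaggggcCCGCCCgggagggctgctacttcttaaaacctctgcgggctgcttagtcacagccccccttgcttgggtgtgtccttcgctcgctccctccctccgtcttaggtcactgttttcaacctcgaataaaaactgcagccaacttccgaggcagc
It had a GC content of 62.4% with 15 CpG, somewhat above the median of all promoters. GGGCGG was found 2 times, and none of the other motifs searched was present.

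Markers of other cell types and of basal cells also moved in SkBr3/Lap. All 5 genes of the basal and myoepithelial list (KRT5, KRT14, KRT17, TP63 and ACTA2) were at least 2-fold higher there. Their summed signal before scaling, most of it from ACTA2, was 477 in SkBr3 and 17203 in SkBr3/Lap. KRT17, a basal keratin, went from 39.4 to 3199 (43.7-fold), KRT14 from 45.2 to 1431 (17.0-fold) and ACTA2, smooth muscle actin, from 364 to 11714 (17.3-fold). KRT5 was not well above background in SkBr3, at 9.75, and 426 in SkBr3/Lap, at least 14.3-fold higher. In BT474/Lap, where CD44 changed little, 2 of the 5 were at least 2-fold higher, KRT14 at 2.83-fold and KRT17 at a limit of 3.93-fold, each under 2-fold with 1 alternative, and the sum was 1252 in BT474 and 2505 in the clone. Over all genes, 13.5% were at least 2-fold higher in SkBr3/Lap and 8.60% in BT474/Lap. A second KRT14 probe changed by 0.86 in SkBr3/Lap and 0.12 in BT474/Lap on the log2 scale. The part of these genes in the CD44 result was not tested.

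Of 4 fibroblast genes with a probe, none was well above background in SkBr3 and 2 were in SkBr3/Lap, with summed signals of 16.2 and 422. COL3A1, a fibrillar collagen, was at least 11.7-fold higher there with its brightest probe. Its 2 dimmer probes gave limits of only 0.74 and 0.04 on the log2 scale. The summed signal of 3 endothelial genes was 181 in SkBr3 and 1395 in SkBr3/Lap, with CDH5 8.43-fold and PECAM1 at least 5.38-fold higher. VWF was only 1.44-fold higher in SkBr3/Lap, and its dimmer probe fell, by -1.69 on the log2 scale. In the BT474 arrays the sums were 16.3 and 15.1 for the fibroblast genes and 905 and 658 for the endothelial genes. In the clone PECAM1 was at least 2.38-fold higher, under 2-fold with 2 of 10 alternatives, and VWF was 2.18-fold lower. The dimmer VWF probe went the other way, with a limit of 0.06 on the log2 scale. For 4 leukocyte genes the sums were 854, 998, 73.0 and 105 in the order of SkBr3 and its clone, then BT474 and its clone. PTPRC, which defines leukocytes, was not well above background on any array, and CD3E was 2.05-fold higher in SkBr3/Lap, under 2-fold with 2 of 11 alternatives and -0.12 on the log2 scale with its dimmer probe. The part of these signals in the results above was not tested.

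Luminal and HER2 genes were detected as the labelled cell type implies, with 5 of 6 well above background on the SkBr3 arrays and 6 of 6 on the BT474 arrays. ERBB2, which encodes HER2, gave signals of 238524 and 118706 in SkBr3 and SkBr3/Lap and of 256346 and 237327 in BT474 and BT474/Lap. It was 3.74-fold lower in SkBr3/Lap and 1.57-fold lower in BT474/Lap, and its neighbor GRB7 was 2.29-fold lower in SkBr3/Lap. The ERBB2 change in BT474/Lap was -0.65 on the log2 scale, but -0.11 with quantile normalization and -0.26 with its other probe. CDH1, the epithelial cadherin, stayed at background on both SkBr3 arrays and gave 44710 and 56836 on the BT474 arrays.

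PROM1 was weakly detected in all samples. Its signal was 69.6 in SkBr3 and 161 in SkBr3/Lap, and 35.9 in BT474 and 24.8 in BT474/Lap, in each case well above background. The SkBr3 cells gave more signal than the BT474 cells. The scaled level of PROM1 was 1.25 times that of SkBr3 in its clone (log2 fold change 0.32) and fell 2.10-fold in BT474/Lap (-1.07). The fall was at least 2-fold under 8 of 11 alternatives and was smallest, -0.35 on the log2 scale, after normexp correction with quantile normalization.

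EPCAM had a strong signal in every sample. It was 30660.1 and 51739 in SkBr3 and SkBr3/Lap, and 29723 and 22696 in BT474 and BT474/Lap. No array stood apart, and after scaling the parental lines differed 1.07-fold. EPCAM was 1.102-fold lower in SkBr3/Lap (log2 fold change -0.14) and 1.90-fold lower in BT474/Lap (-0.93). The latter was just short of the 2-fold limit, and it passed when arrays were scaled to their median (-1.13).

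**Figure D3:**
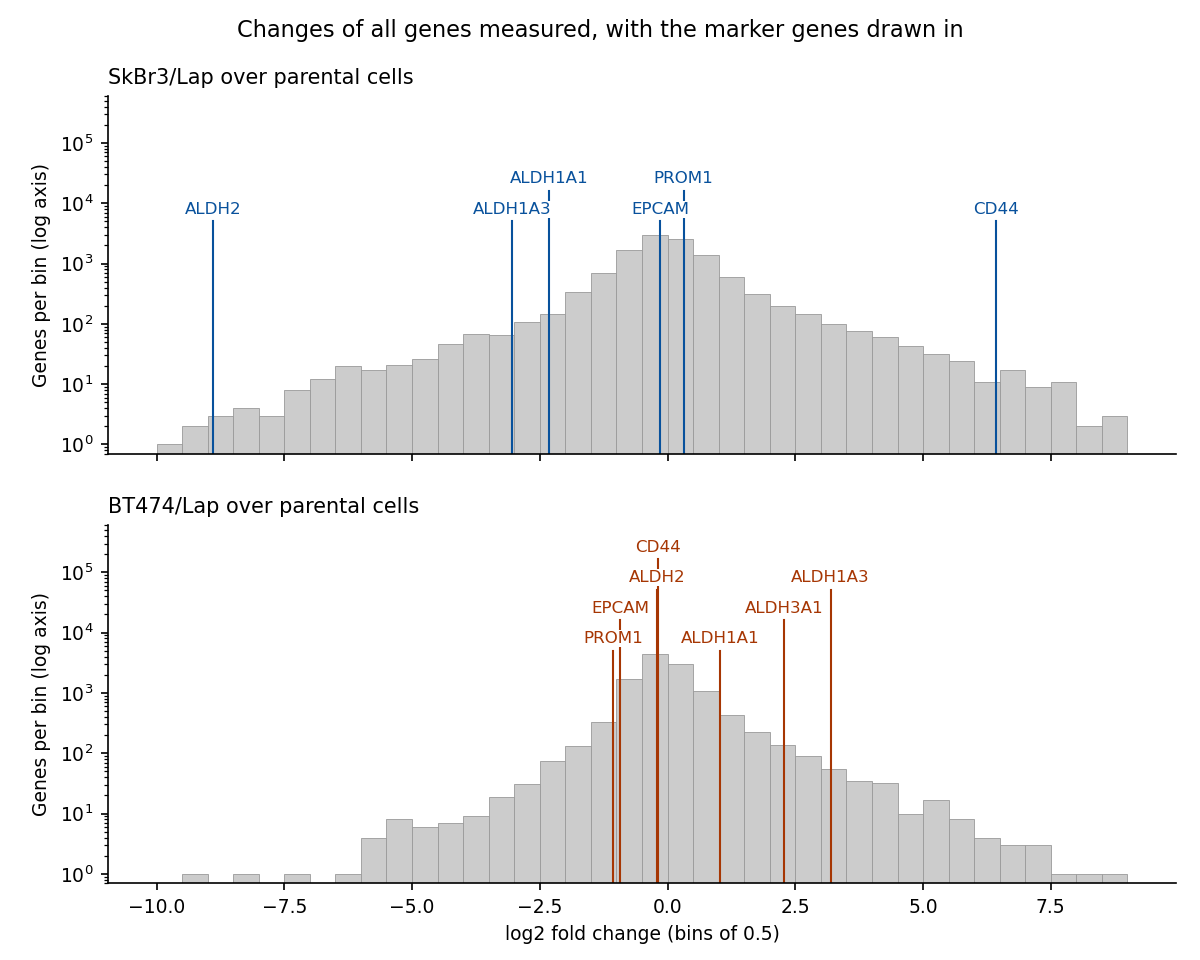
Number of genes (log axis) by log2 fold change in bins of 0.5, for each clone over its parental cells, with the genes described here drawn as lines. Lines of ALDH1A1 in SkBr3/Lap and ALDH3A1 in BT474/Lap are limits. ALDH2 and CD44 lie in the tails of SkBr3/Lap, ranking 6 from the lowest and 43 from the highest of 11784 genes, and both lie near 0 in BT474/Lap.

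Of 12 other aldehyde dehydrogenases with a kept probe, 3 were at least 2-fold higher in SkBr3/Lap (ALDH1B1, ALDH5A1 and ALDH8A1) and 2 were lower (ALDH3A2 and ALDH4A1), and the median log2 fold change was -0.03. In BT474/Lap 2 were higher (ALDH3A2 and ALDH3B1) and 0 were lower, with a median of 0.05. These shares are to be read against those of all genes given above. The dimmest of 3 ALDH4A1 probes changed by only 0.06 on the log2 scale in SkBr3/Lap. Genes named in such counts only, with no value or only that of a dimmer probe, were chosen after their values were seen.

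ALDH3A2, which oxidizes fatty aldehydes, followed the direction of ALDH1A1 and ALDH1A3. Its signal was 565 and 517 in SkBr3 and SkBr3/Lap, and 1148 and 5926 in BT474 and BT474/Lap. This made it 2.04-fold lower in SkBr3/Lap, against a rise of 3.56-fold in BT474/Lap. The fall in SkBr3/Lap was under 2-fold with 3 of 11 alternatives. ALDH5A1, the succinate semialdehyde dehydrogenase, went from 24.4 to 1612 in SkBr3/Lap, 35.4-fold higher, with limits of at least 2-fold on its other 2 probes. ALDH8A1, an enzyme of tryptophan breakdown, was dim in SkBr3 and 314 in SkBr3/Lap, at least 10.5-fold higher.

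The genes that carry, break down and sense retinoic acid moved in both directions. Of 16 with a kept probe, 6 were at least 2-fold higher and 4 lower in SkBr3/Lap, and 3 were higher and 2 lower in BT474/Lap, with medians of -0.06 and -0.23. Those higher in SkBr3/Lap included CYP26A1, CYP26B1, FABP5, STRA6 and TGM2, and those lower were CRABP2, DHRS3, RARA and RARG. In BT474/Lap DHRS3, RARG and RXRA were higher and FABP5 and RARRES1 lower. The dimmer probes of RARG and RXRA changed by only 0.76 and 0.36 there on the log2 scale. Over all genes, 13.5% were higher and 13.0% lower in SkBr3/Lap, and 8.60% and 5.14% in BT474/Lap.

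CYP26A1 and CYP26B1 break down retinoic acid. CYP26A1 was dim in SkBr3 and 979 in SkBr3/Lap, at least 32.9-fold higher, and was 36.0 and 83.7 in the BT474 cells. CYP26B1 was dim in SkBr3 and 1775 in SkBr3/Lap, at least 59.6-fold higher, and dim in the BT474 cells. On its dim second probe CYP26B1 gave a limit of only 0.16 on the log2 scale.

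DHRS3, which reduces retinaldehyde back to retinol, was 12767 and 9044 in SkBr3 and SkBr3/Lap, and 1088 and 5238 in BT474 and BT474/Lap. It fell 2.63-fold in SkBr3/Lap and rose 3.32-fold in BT474/Lap. RARG, a retinoic acid receptor, fell 2.95-fold in SkBr3/Lap and rose 2.08-fold in BT474/Lap, the latter under 2-fold with 3 of 11 alternatives. These have the directions of ALDH1A1 and ALDH1A3. FABP5, a fatty acid-binding protein that can also carry retinoic acid, had the opposite directions, with 662 and 18556 in SkBr3 and SkBr3/Lap, and 2699.5 and 1013 in BT474 and BT474/Lap. It rose 15.1-fold in SkBr3/Lap and fell 3.87-fold in BT474/Lap, and its 4 probes gave the same directions.

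**Figure D4:**
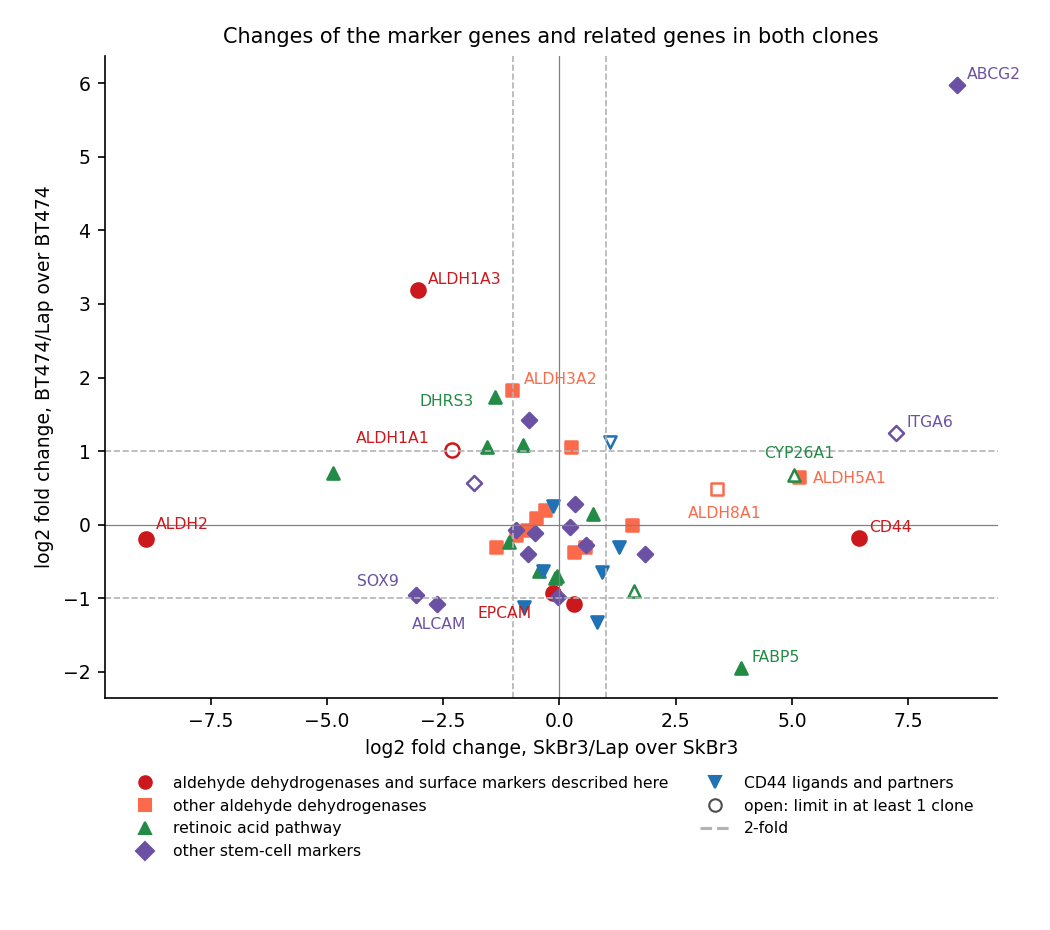
The log2 fold change in SkBr3/Lap (x axis) and in BT474/Lap (y axis) of the genes described here and of 4 lists of related genes. Each point is a gene with a fold change in both clones, open points are limits in at least 1 clone, and dashed lines mark 2-fold. ALDH1A1, ALDH1A3, ALDH3A2 and DHRS3 lie to the upper left and FABP5 to the lower right, while ABCG2 and ITGA6 lie to the upper right.

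Other stem-cell markers did not share 1 direction. Of 15 with a kept probe, 3 were at least 2-fold higher (ABCG2, ITGA6 and KLF4) and 3 lower (ALCAM, PROCR and SOX9) in SkBr3/Lap, and 3 were higher (ABCG2, ITGA6 and NANOG) and 2 lower (ALCAM and SOX2) in BT474/Lap. The medians were -0.27 and -0.12. The shares of all genes were 13.5% higher and 13.0% lower in SkBr3/Lap, and 8.60% higher and 5.14% lower in BT474/Lap. ABCG2, a drug efflux transporter that marks side-population cells, had a signal of 99.1 and 69052 in SkBr3 and SkBr3/Lap, and of 99.5 and 9092 in BT474 and BT474/Lap. It was high in both clones and low in both parental lines, with a rise of 375-fold in SkBr3/Lap and of 62.9-fold in BT474/Lap.

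ITGA6, an integrin used together with EPCAM to sort mammary cells, was dim in SkBr3 and 4479 in SkBr3/Lap, at least 150-fold higher. It went from 869.8 in BT474 to 2986 in BT474/Lap, 2.37-fold higher. ALCAM, an adhesion molecule, was 6.21-fold lower in SkBr3/Lap and 2.10-fold lower in BT474/Lap, the latter under 2-fold in 1 of 11 alternatives. SOX9, a transcription factor of mammary progenitors, was 8.51-fold lower in SkBr3/Lap and 1.93-fold lower in BT474/Lap. SOX2, a pluripotency factor, was 5.63-fold lower in BT474/Lap. No fold change can be given for SkBr3/Lap, where its signal was 17.6, against 13.6 in SkBr3, which was not well above background.

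The CD44 list held 8 genes of hyaluronan synthesis and breakdown, CD44 partners and splicing regulators of CD44. Of these, 3 were at least 2-fold higher (EZR, HAS3 and MSN) and 0 lower in SkBr3/Lap, with a median of 0.86. In BT474/Lap 1 was higher (HAS3) and 2 were lower (ESRP1 and HMMR), with a median of -0.63. Of all genes, 13.5% were higher and 13.0% lower in SkBr3/Lap, and 8.60% and 5.14% in BT474/Lap. MSN encodes moesin, which ties the tail of CD44 to actin. Its signal was dim in SkBr3 and in both BT474 samples and was 6778 in SkBr3/Lap, at least 228-fold higher. All 4 of its probes were well above background in SkBr3/Lap alone, with limits from 0.67 to 7.83 on the log2 scale. HAS3, a hyaluronan synthase, was higher by at least 2.12-fold in SkBr3/Lap and by 2.17-fold in BT474/Lap, under 2-fold with 2 of 10 and 4 of 10 alternatives. HMMR, another hyaluronan receptor, had 1.76 times the parental level in SkBr3/Lap and was 2.50-fold lower in BT474/Lap.

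Among 6 partners of EPCAM, 1 was at least 2-fold higher (FHL2) and 2 lower (CD9 among them) in SkBr3/Lap, and 0 were higher and 1 lower (CLDN7) in BT474/Lap. The medians were -0.18 and -0.03. Among all genes the shares were 13.5% higher and 13.0% lower in SkBr3/Lap, and 8.60% and 5.14% in BT474/Lap. CD9, a tetraspanin, went from 17813 in SkBr3 to 3478 in SkBr3/Lap, 9.53-fold lower, and was 18160 and 26467 in BT474 and BT474/Lap. FHL2, a transcriptional cofactor, went from 10463 to 104348 in SkBr3/Lap, 5.36-fold higher, and was 1.22-fold higher in BT474/Lap. The change of EPCAM itself in SkBr3/Lap was smaller than that of either gene.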

How the data were processed

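Total RNA of 4 samples was hybridized with Cy3 to 4 one-colour Agilent arrays. The spot values deposited by the authors include a processed signal, which is a background-subtracted intensity made with Feature Extraction 10.1.1.1 per the file headers, along with other flags of the software, of which well above background was used here. The study's text describes a different software version and 2 dyes. The authors also deposited a log2 value table, centered for each probe; the median values of its columns were between -0.20 and 0.12, its direction matched the signals, and a clone-minus-parent difference taken from it differed by 0.62 at most from that of the signals.

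Log2 signals were averaged over the spots printed for each probe, and the 75th percentile over 41000 non-control probes was subtracted. A probe was well above background when at least 50% of its spots were. Accessions were matched to the RefSeq annotation of GRCh38.p14, which named 23675 probes, and a gene was represented by its brightest probe with a signal of at least 100 on 1 array or more. Between 66.6% and 74.0% of probes were well above background, no spot was saturated, and the median SD of probes printed 10 times was 0.07 to 0.08 (log2). Promoters were in the RefSeq table for 6 of the 10 genes. The computation of fold changes and limits was tested on simulated data. Python 3.11.15, numpy 2.4.6, pandas 2.3.3 and matplotlib 3.10.9 were used, with limma 3.58.1 in R 4.3.3 for normalization only.

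The genes and lists were chosen with earlier results of these data known. From each related list the text names the genes changed at least 2-fold in both clones, up to 4, and up to 2 more with the largest change. A few genes of these lists are not reported here. The 12 alternatives were other scalings, corrections, filters, probe summaries, the deposited table and a 3-fold threshold. Their use on the related lists was decided after the data were seen. With 1 array for each sample no replicate could be left out.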

Additional observations from a re-analysis of the deposited data

Results flagged for a closer look

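6 of the named genes changed at least 2-fold in opposite directions in the clones. The difference between the clones was not tested, since each rests on 1 array. On the log2 scale ALDH1A1 changed by -2.31 in SkBr3/Lap, as a limit, and by 1.02 in BT474/Lap. ALDH1A3 changed by -3.04 and 3.19, ALDH3A2 by -1.03 and 1.83, DHRS3 by -1.39 and 1.73, and RARG by -1.56 and 1.05 in the same order. FABP5 went the other way, by 3.91 in SkBr3/Lap and -1.95 in BT474/Lap.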

How the results depend on the processing

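Of the genes described and the genes named by rule from the related lists, none with at least a 2-fold change turned its direction under an alternative that gave it a value, and the genes named only in counts were not followed singly. The calls of ALDH1A3 in both clones and of ALDH2 and CD44 in SkBr3/Lap held under all 11 alternatives that give a fold change. The count of genes lower in BT474/Lap, 1 as reported, was 0 with the percentile over probes well above background on all 4 arrays, with normexp and quantile normalization, with 16 added to the signal and with the 3-fold threshold, and 2 with the median of the probes. The count higher in BT474/Lap, 3 as reported, was 1 when only probes well above background on all 4 arrays were used. The median of these genes in SkBr3/Lap, -1.23 as reported, was -0.43 with normexp and quantile normalization, -1.59 with the deposited log2 table, -0.92 with 16 added and -0.14 when only such probes were used, where fewer genes remain. The median in BT474/Lap, -0.19 as reported, was 0.11 with quantile normalization. The causes of the other shifts were not tested. Of the single-gene values, 14 moved by more than the spread between probes of a gene and 126 did not, and for the named genes of the related lists 76 moved and 476 did not. Scaling to the median moved the median of all genes by 0.16 for SkBr3/Lap and by -0.21 for BT474/Lap, and the percentile over probes well above background moved it by 0.11 in BT474/Lap. Over the alternatives, with the threshold kept at 2-fold, the genes higher and lower in SkBr3/Lap numbered 2 to 3 and 1 to 2 for the other aldehyde dehydrogenases, 1 to 6 and 3 to 5 for the retinoic acid list, 2 to 3 and 2 to 3 for the other stem-cell markers, 1 to 4 and 0 for the CD44 list, and 1 and 1 to 2 for the EPCAM list. In BT474/Lap they numbered 1 to 2 and 0, 1 to 3 and 1 to 3, 2 to 4 and 1 to 4, 0 to 1 and 2, and 0 and 0 to 2 in the same order. The basal genes higher numbered 2 to 5 in SkBr3/Lap and 1 to 2 in BT474/Lap. The lowest counts include those with few genes left under the filter on all 4 arrays. The medians of the other aldehyde dehydrogenases in both clones, of the retinoic acid list in SkBr3/Lap and of the EPCAM list in BT474/Lap lay on both sides of 0. No paired analysis was possible because each group has 1 sample. Signals near background, as for ALDH1A1 in SkBr3/Lap, ALDH1A2, ALDH3A1 and PROM1, limit the size of change that can be read.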
